A study of Mus musculus with 6 samples.

Results

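A group of 10 regulators of epithelial-mesenchymal transition (EMT) were followed in flat cultures of mouse airway organoids (2D-MAOs) given TGF-β1. The 10 genes were taken by symbol, out of 22910 genes named on the array. The list held 7 EMT transcription factors (Snai1, Snai2, Zeb1, Zeb2, Twist1, Twist2 and Prrx1) and 3 epithelial counterparts (Ovol1, Ovol2 and Grhl2). The cultures were airway epithelial cells from the lung of C57BL/6 mice, expanded as organoids and plated flat. All 6 cultures came from that strain, and the labels name no genetic change in any of them. TGF-β1, a secreted growth factor, was added on day 3 to the medium of 3 cultures. From then on the medium of both groups lacked noggin, an antagonist of bone morphogenetic proteins, and A83-01, an inhibitor of TGF-β receptors. The 3 control cultures received no TGF-β1, and all cultures were harvested on day 7. The microarray methods name no concentration, and the labels give no age or sex of the mice. RNA of each culture was hybridised to 1 array, and the cultures of a group were described as biological replicates. All 6 arrays lay on 1 slide.

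EMT transcription factors bind DNA of epithelial genes and lower their transcription, while cells take up mesenchymal features such as fibronectin and collagen. Snai1 and Snai2 are zinc finger repressors, Zeb1 and Zeb2 carry zinc fingers on both sides of a homeodomain, Twist1 and Twist2 are basic helix-loop-helix proteins, and Prrx1 is a homeodomain protein. Ovol1 and Ovol2 are zinc finger repressors that restrain Zeb1 and other EMT factors in epithelia. Grhl2 is an activator of junction genes such as Cdh1 and Cldn4, and it also represses Zeb1. TGF-β is the best known inducer of the EMT factors in cultured epithelial cells, and lung airways depend on Grhl2 for their barrier.

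The Snail and Zeb proteins recognise the E-box with the letters CAGGTG, which reads CACCTG on the other strand. Promoters from the RefSeq table of the mouse build GRCm38.p6 were therefore searched in the 250 bases before each start site. Both spellings were counted as 1 kind of site, and since they are the same letters read on opposite strands, no site was counted under both. Of 32851 promoters in the table, 5657 (17.2%) held at least 1, and of 27025 genes, 5252 (19.4%) did in at least 1 of their promoters. Promoters of 6 of the 10 members were matched by symbol, and only that of Snai1 held the E-box. Those of Zeb2, Twist1, Twist2, Prrx1 and Ovol2 did not hold these letters in this window. Of 30 epithelial genes listed as targets of the EMT factors, 18 were matched and 12 (66.7%) held the E-box. Of 24 mesenchymal genes, 14 were matched and 0 held it. A match describes the letters only and does not show binding. The promoters below are those of Epcam and Cldn4, which were among the largest differences of the epithelial list, of Crb3, chosen after the search for its 3 E-boxes, and of Snai1. Each is written 5′ to 3′ on the strand of its gene and ends at the base before the start site, with the E-box in capitals. The Epcam window is chr17:87635729-87635978 on the plus strand, with E-boxes starting 187 and 19 bases before the start site. The Cldn4 window is chr5:134946935-134947184 on the minus strand, with 1 E-box at 14 bases. The Crb3 window is chr17:57061951-57062200 on the plus strand, with E-boxes at 118, 63 and 7 bases. The Snai1 window is chr2:167537945-167538194 on the plus strand, with 1 E-box at 126 bases.
Epcam: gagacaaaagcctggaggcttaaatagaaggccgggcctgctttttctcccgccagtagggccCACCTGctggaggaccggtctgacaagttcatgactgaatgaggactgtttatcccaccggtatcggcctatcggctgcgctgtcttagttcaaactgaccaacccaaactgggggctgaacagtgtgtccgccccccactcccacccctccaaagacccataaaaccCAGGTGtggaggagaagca
Cldn4: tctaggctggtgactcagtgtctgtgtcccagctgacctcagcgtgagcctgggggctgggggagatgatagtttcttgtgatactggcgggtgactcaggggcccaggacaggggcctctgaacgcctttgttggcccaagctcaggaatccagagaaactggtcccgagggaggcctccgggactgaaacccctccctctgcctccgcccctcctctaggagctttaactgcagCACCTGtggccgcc
Crb3: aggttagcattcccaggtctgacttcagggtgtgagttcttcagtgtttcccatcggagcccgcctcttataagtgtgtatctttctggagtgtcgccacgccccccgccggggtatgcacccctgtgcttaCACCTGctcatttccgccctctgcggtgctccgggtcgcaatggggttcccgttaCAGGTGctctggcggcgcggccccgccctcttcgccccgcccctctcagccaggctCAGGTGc
Snai1: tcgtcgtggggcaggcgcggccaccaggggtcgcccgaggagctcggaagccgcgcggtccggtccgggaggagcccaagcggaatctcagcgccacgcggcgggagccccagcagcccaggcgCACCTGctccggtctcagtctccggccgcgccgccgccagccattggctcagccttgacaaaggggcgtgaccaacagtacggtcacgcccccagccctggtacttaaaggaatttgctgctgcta

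**Figure D1:**
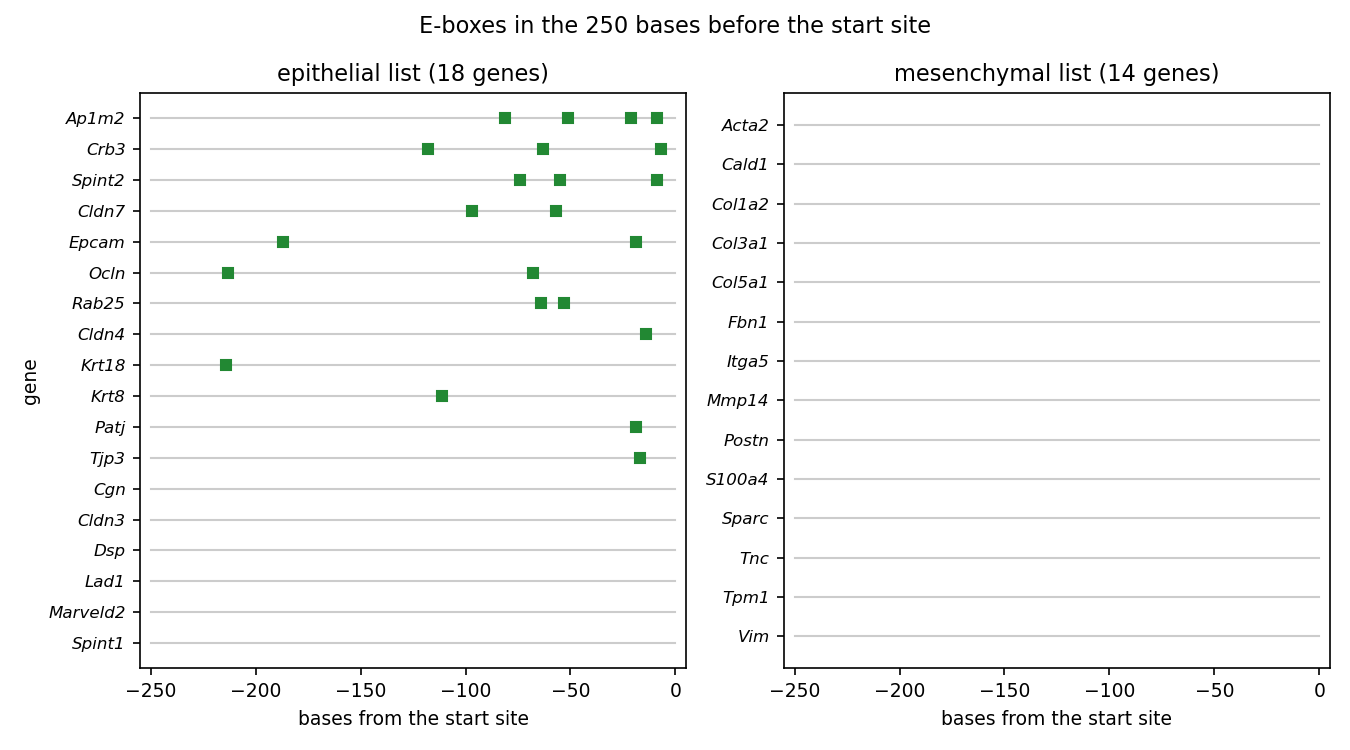
Position of each E-box (square) in the 250 bases before the start site, for the epithelial and mesenchymal list genes with a RefSeq promoter, and for a gene with several start sites, the one with most E-boxes is drawn. E-boxes lie on 12 of the 18 epithelial lines and on 0 of the 14 mesenchymal lines.

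Signals were background-subtracted spot brightness, normalised between arrays by quantiles and given on the log2 scale. A probe was called well above background (detected) by the scanner software, array by array, and a gene was tested when 1 of its probes was so on at least 3 arrays. The share of spots well above background was 56.8% to 60.8% over the 6 arrays, and no spot was saturated. Differences are TGF-β1 minus control from limma, with p adjusted by Benjamini-Hochberg over the 14345 genes tested. A differentially expressed gene (DEG) had an adjusted p under 0.05 and a change of 2-fold or more. By that rule 171 genes (1.19% of those tested) rose and 27 (0.188%) fell, and 292 (2.04%) had an adjusted p under 0.05 at any size. TGF-β1 replicate 3 stood closest to the controls in the members and lists that differed. For the genes named here whose call it decides, the value without it is also given. Leaving out that array raised the DEGs over all genes from 198 to 709, while leaving out any other single array gave 56 to 210. Values without TGF-β1 replicate 3 are therefore descriptions and do not count as calls. Arrays of replicate 3 of both groups lay in row 2 of the slide and the other 4 in row 1. Since a spot's brightness also reflects its probe, no level of 1 gene was set against that of another. Epithelial markers were plain in every culture, since 13 of 16, including Epcam, Cdh1, Krt8, Krt5 and Nkx2-1, were well above background on all 6 arrays. Muc5ac, Muc5b and Sftpc were not well above background on any array. Foxj1, the master factor of ciliated cells, was a DEG of that list and rose by 1.47 (adjusted p = 0.00238, limma). Scgb1a1, the secretory product of club cells, differed by -2.27 (adjusted p = 0.158) and Krt5, a keratin of basal cells, by 1.37 (adjusted p = 0.178), or 1.90 without TGF-β1 replicate 3 (adjusted p = 0.0194).

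None of the 10 members was a DEG. Snai2 was the only member with every TGF-β1 array above every control array. Ovol1, Prrx1 and Ovol2 lay lower on every TGF-β1 array than on any control array, and Grhl2 was level. The members tested were 6, namely Snai2, Zeb1, Prrx1, Ovol1, Ovol2 and Grhl2, and 0 of them had an adjusted p under 0.05 (limma), against 3 (Snai2, Prrx1 and Ovol1) with an unadjusted p under 0.05, which 22.2% of all genes tested had. Over all genes, 1847 (12.9%) had all TGF-β1 arrays above all controls and 1935 (13.5%) had all below. The 1 higher and 3 lower members are to be read against those shares. The other 4 members, Snai1, Zeb2, Twist1 and Twist2, did not reach the detection rule, and 3 of them were not well above background on any array.

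**Figure D2:**
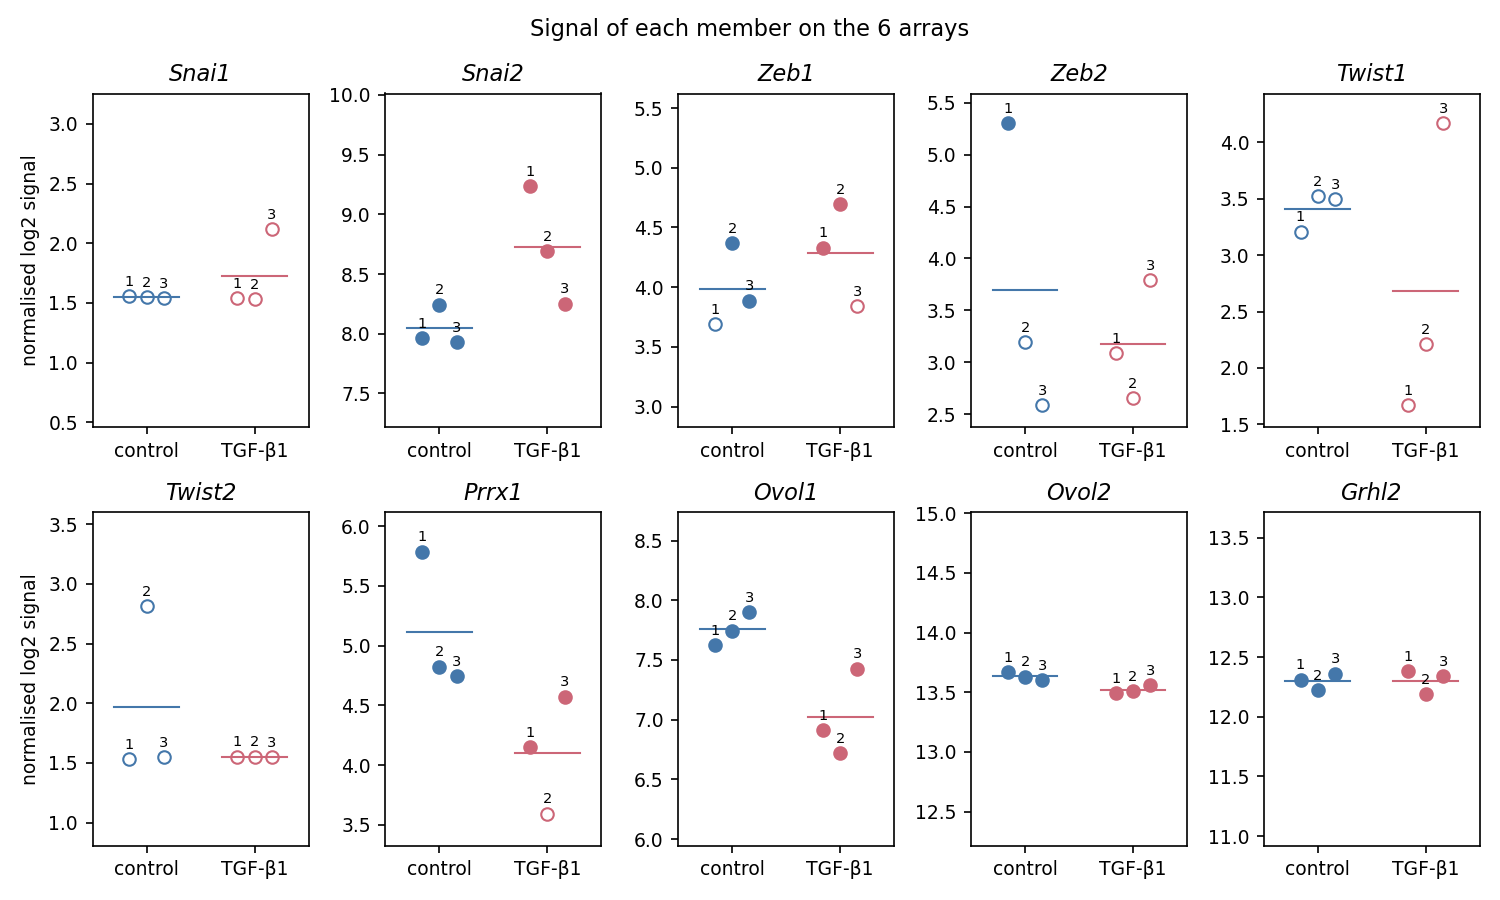
Normalised log2 signal of the 10 members on the 3 control and 3 TGF-β1 arrays, with the replicate number above each point and the group mean as a line. Filled points were well above background and open points were not. Axes differ in position between genes and the dim probes are drawn for completeness. Snai2 lies higher and Ovol1 lower on all 3 TGF-β1 arrays, while Snai1, Twist1 and Twist2 hold open points only.

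Snai2, which encodes Slug, a repressor of cell adhesion genes that basal airway cells also use, was measured by 1 probe and detected on all 6 arrays. Its log2 signal was 7.96, 8.24 and 7.93 in control replicates 1, 2 and 3, and 9.24, 8.69 and 8.25 in TGF-β1 replicates 1, 2 and 3. The groups did not overlap, but TGF-β1 replicate 3 lay next to control replicate 2. The means were 8.05 ± 0.17 and 8.73 ± 0.49 (SD, n = 3 arrays each). The log2 difference was 0.68 with a standard error (SE) of 0.25 and a 95% interval of 0.091 to 1.27, that is 1.60-fold, and the adjusted p was 0.185 (limma). An exact permutation test, two-sided, gave p = 0.1, the smallest that 3 arrays against 3 allow. Before normalisation the Snai2 spot was 7.23 to 8.08 times as bright as its local background on the control arrays and 18.9, 12.3 and 8.99 times on TGF-β1 replicates 1, 2 and 3. The log2 difference became 0.92 when TGF-β1 replicate 3 was left out, with an adjusted p of 0.0340, and within row 1 of the slide it was 0.86 with an adjusted p of 0.0492, both under 2-fold. It was 0.43 with an adjusted p of 0.440 when TGF-β1 replicate 1 was left out. Krt5, the basal cell keratin, read 12.68, 12.64 and 13.43 on the control arrays and 15.17, 14.45 and 13.23 on TGF-β1 replicates 1, 2 and 3. It was highest on the arrays where Snai2 was highest. Trp63, a basal cell factor of the same marker list, differed little. It read 11.65, 11.78 and 11.79 on the control arrays and 11.96, 11.97 and 11.83 on the TGF-β1 arrays (0.18, adjusted p = 0.332, limma). The part of basal cells in the Snai2 values was not tested. Across the 18 alternative settings the adjusted p of Snai2 ranged from 0.0174 to 0.440.

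Snai1, a close relative of Snai2 and an early responder to TGF-β in many epithelial cells, was detected on no array. Its log2 signal was 1.56, 1.55 and 1.54 on the control arrays and 1.54, 1.53 and 2.12 on the TGF-β1 arrays. All of these lie under the lowest log2 signal of any probe well above background, which was 3.47 to 4.19 over the arrays. The data therefore give only an upper bound for Snai1, and no fold was computed.

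Zeb1, a repressor of Cdh1 and of the microRNA-200 family, was dim. The brighter of its 2 probes read 3.69, 4.37 and 3.89 on the control arrays and 4.33, 4.69 and 3.84 on the TGF-β1 arrays, and it was well above background on 2 arrays of each group. The groups overlapped, and the log2 difference was 0.31 (SE 0.26, 95% interval -0.31 to 0.93, adjusted p = 0.502, limma). That interval holds both a small decrease and a change of up to 1.90-fold, so that a moderate increase of Zeb1 could not be told from none. The Zeb1 difference was 0.03 with normexp background and 0.10 to 0.53 with 1 array left out, lowest without TGF-β1 replicate 2 and highest without TGF-β1 replicate 3. The other Zeb1 probe was detected on no array.

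Zeb2, the paralogue of Zeb1, was well above background on 1 array only, control replicate 1, and with 1 of its 3 probes. That probe read 5.30, 3.20 and 2.59 on the control arrays and 3.09, 2.65 and 3.79 on the TGF-β1 arrays. No TGF-β1 array gave a Zeb2 signal above background, and since the control mean of 3.70 was no higher than the bound of 3.72 set for the TGF-β1 arrays, no fold was given.

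Twist1 and Twist2, factors of mesoderm and neural crest that partner with E proteins, were not well above background on any array. Twist1 read 3.21, 3.52 and 3.50 on the control arrays and 1.67, 2.21 and 4.17 on the TGF-β1 arrays. Twist2 read 1.53, 2.81 and 1.55 on the control arrays and 1.55 on each of the 3 TGF-β1 arrays. The spread of the Twist1 values was wide within the TGF-β1 group and no direction was read from either gene.

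Prrx1, a mesenchymal homeodomain factor, lay lower in the treated cultures, although its signal was weak. Its log2 signal was 5.79, 4.82 and 4.75 on the control arrays and 4.15, 3.59 and 4.57 on the TGF-β1 arrays, with TGF-β1 replicate 2 not well above background. The groups did not overlap, with control replicate 1 the highest and TGF-β1 replicate 2 the lowest. The log2 difference was -1.01 (SE 0.35, 95% interval -1.84 to -0.18), 2.02-fold lower, with an adjusted p of 0.172 (limma). The Prrx1 spot was only 1.86 to 2.86 times as bright as its local background on the control arrays and 1.64 to 1.86 times on the TGF-β1 arrays. With a background correction by normexp, which compresses dim signals, the difference was -0.32. With array weights, which count deviating arrays less, it was -1.40 with an adjusted p of 0.0178, and across 17 alternatives the adjusted p ran from 0.0178 to 0.435. A second Prrx1 probe was detected on no array.

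Among the epithelial counterparts, Ovol1 lay lower with TGF-β1 and had the smallest p of the 6 members tested. Ovol1, which limits Zeb1 and Myc transcription in differentiating epithelia, was detected by its single probe on all 6 arrays. The log2 signal was 7.63, 7.75 and 7.90 on the control arrays and 6.91, 6.72 and 7.43 on the TGF-β1 arrays. The controls lay close together, and TGF-β1 replicate 3 again fell nearest to them. The means were 7.76 ± 0.14 and 7.02 ± 0.37 (SD, n = 3 arrays each). The log2 difference was -0.74 (SE 0.20, 95% interval -1.20 to -0.27), 1.67-fold lower, with an unadjusted p of 0.00735 and an adjusted p of 0.115 (limma). It became -0.94 (adjusted p = 0.0129) when TGF-β1 replicate 3 was left out, and within row 1 of the slide -0.87 with an adjusted p of 0.0159. The adjusted p was 0.346 for the least favourable of the 6 arrays left out in turn, and the sign of the Ovol1 difference was the same under all 18 alternatives.

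Ovol2, the paralogue of Ovol1 and a repressor of Zeb1, was bright and differed little. Its brighter probe read 13.67, 13.63 and 13.60 on the control arrays and 13.49, 13.51 and 13.56 on the TGF-β1 arrays. The groups did not overlap, yet the gap was small and the log2 difference was -0.11 (SE 0.095, 95% interval -0.34 to 0.12, adjusted p = 0.506, limma). A dimmer Ovol2 probe read 7.75, 7.90 and 7.66 on the control arrays and 7.42, 7.12 and 7.81 on the TGF-β1 arrays, and on that probe the groups overlapped. The interval of the bright probe spans 0.793-fold to 1.08-fold, which leaves out a 2-fold decrease. The Ovol2 difference was -0.31 with scaling to the 75th percentile and -0.22 with the mean of its probes.

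Grhl2, the activator of the epithelial junction programme, was level on its brighter probe. That probe read 12.31, 12.22 and 12.36 on the control arrays and 12.38, 12.19 and 12.34 on the TGF-β1 arrays. The log2 difference was 0.0053 (SE 0.11, 95% interval -0.25 to 0.26, adjusted p = 0.98, limma), an interval of 0.843-fold to 1.20-fold. The 2 probes of Grhl2 disagreed, since the dimmer one read 7.73, 7.40 and 7.28 on the control arrays and 7.24, 7.06 and 7.09 on the TGF-β1 arrays, lower by 0.34 on the log2 scale with no overlap. The sign of Grhl2 also turned with the scaling of the arrays, to -0.13 when each was set to its 75th percentile.

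**Figure D3:**
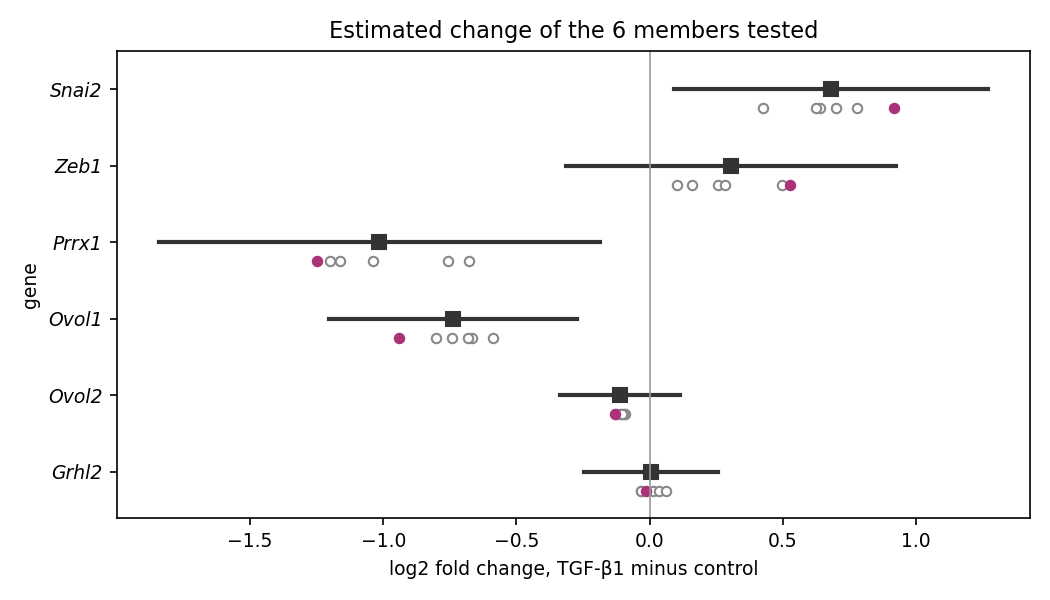
Log2 fold change of the 6 members tested, TGF-β1 minus control, as a square with its 95% interval from limma; circles under each square are the values with 1 array left out, and the filled circle is the value without TGF-β1 replicate 3. Leaving out that array moves Snai2 to 0.92 and Ovol1 to -0.94, and the Grhl2 values stay within 0.07 of 0.

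The TGF-β1 arrays differed among themselves, and replicate 3 deviated least for several members. Against the control mean, Snai2 was higher by 1.19, 0.65 and 0.21 on the log2 scale in TGF-β1 replicates 1, 2 and 3. Ovol1 differed by -0.84, -1.04 and -0.33 and Prrx1 by -0.97, -1.53 and -0.55. In each of these genes replicate 3 had the smallest deviation. Among the mesenchymal genes described further down, the median of the 16 detected on all 6 arrays deviated by 0.87, 0.93 and 0.63 in the same arrays, and that of the 3 fibroblast markers detected on all arrays by 2.18, 0.76 and 0.16.

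**Figure D4:**
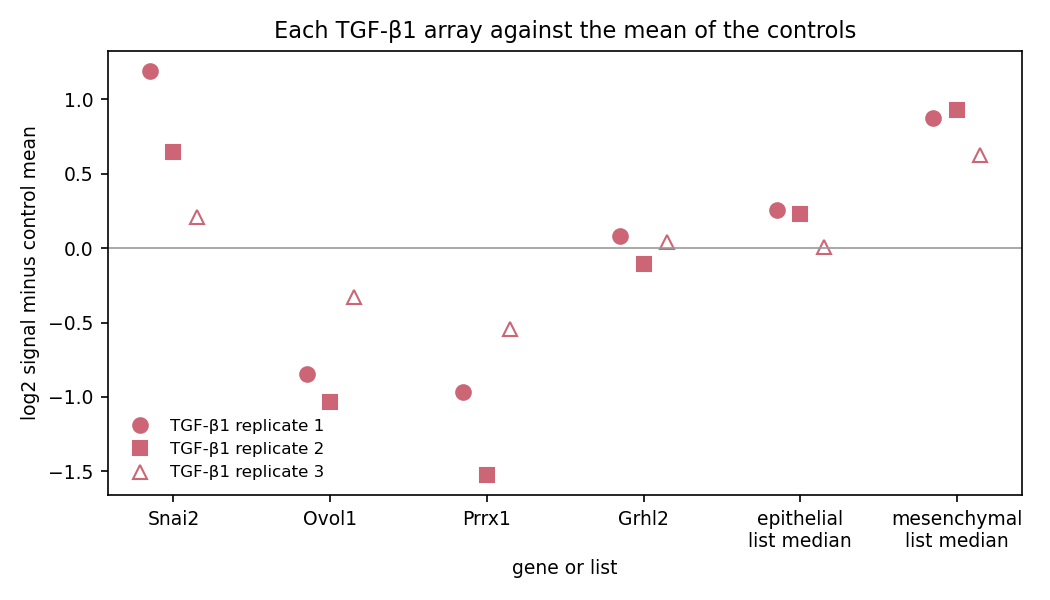
Log2 signal of each TGF-β1 array minus the mean of the 3 controls, for 4 members and for the median of the epithelial (30 genes) and mesenchymal (16 genes detected on all arrays) lists; open triangles are replicate 3. For Snai2, Ovol1, Prrx1 and the mesenchymal list the triangle lies nearest to 0.

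The genes whose signal followed these members most closely over the 6 arrays were ranked by Pearson r, as a description. For Ovol1 they were Rps6ka5 (r = 0.994), Nt5dc3 (0.994) and Rhbg (0.993), and 1.57% of the genes tested had an r above 0.95. For Snai2 they were Socs2 (r = 0.989), Zfp974 (0.985) and 2610524H06Rik (0.979), and 0.397% of genes had an r above 0.95. For Ovol2 they were Tmod4 (r = 0.997), Cacna1h (0.996) and Brox (0.996), with 2.22% of genes above 0.95. With 6 arrays in 2 groups, any gene that separates the groups in the same way ranks high.

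Genes that the EMT factors are known to repress were then examined, to see whether the epithelial programme was lower where Snai2 was higher. No common direction of the list held under both scalings of the arrays. All 30 epithelial genes were well above background on all 6 arrays, 0 were DEGs and 0 had an adjusted p under 0.05 (limma), against 10 of the 30 with an unadjusted p under 0.05, beside 22.2% of all genes. Of the 30, 20 were higher and 10 lower, with a median log2 difference of 0.13, while the median over all genes tested was -0.031. Scaling by the 75th percentile turned this to 13 higher and 17 lower with a median of -0.033, so the direction of the list depends on the scaling. All TGF-β1 arrays were above all controls for 5 of these genes and below for 6, beside 12.9% and 13.5% of all genes.

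Cdh3 (P-cadherin, an adhesion protein of basal cells) had the largest difference of the epithelial list. It read 9.67, 10.38 and 10.59 on the control arrays and 11.78, 11.72 and 11.12 on the TGF-β1 arrays, with no overlap. The log2 difference of Cdh3 was 1.33 (SE 0.28, adjusted p = 0.0736, limma), and it passed the DEG rule with normexp background (1.31, adjusted p = 0.0385) and without TGF-β1 replicate 3 (1.54, adjusted p = 0.0223). Epcam, an epithelial adhesion molecule whose promoter holds 2 E-boxes, read 13.33, 13.09 and 13.50 on the control arrays and 14.49, 14.19 and 13.71 on the TGF-β1 arrays (log2 difference 0.82, adjusted p = 0.115), and it passed the DEG rule without TGF-β1 replicate 3 (1.03, adjusted p = 0.0179). St14, a membrane protease of epithelia also called matriptase, differed by 0.73 (adjusted p = 0.127), or 0.94 without that array (adjusted p = 0.0175). Cldn4, a tight junction claudin with 1 E-box in the sequence shown above, read 13.40, 13.06 and 13.18 against 14.22, 13.92 and 13.47 and differed by 0.66 (adjusted p = 0.151), or 0.86 without that array (adjusted p = 0.0235). For Epcam and Cldn4 every TGF-β1 array lay above every control array, and TGF-β1 replicate 3 was the lowest of the 3. With any other single array left out, the adjusted p (limma) was 0.0741 to 0.257 for Cdh3, 0.110 to 0.329 for Epcam and 0.184 to 0.402 for Cldn4. Cdh1, or E-cadherin, the defining target of the EMT repressors, and Crb3, an apical polarity protein with 3 E-boxes, were looked at after the list was seen. Cdh1 read 14.78, 14.53 and 15.15 on the control arrays and 15.52, 15.42 and 14.98 on the TGF-β1 arrays (log2 difference 0.49, 95% interval -0.0066 to 0.99, adjusted p = 0.23, limma). Crb3 differed by -0.17 (95% interval -0.43 to 0.091, adjusted p = 0.381). Like Crb3, 5 further genes lay lower on every TGF-β1 array than on any control array, and they too were taken after the list was seen. These were Rab25 (-0.49, adjusted p = 0.176, limma), Prss8 (-0.36, 0.192), Tjp3 (-0.35, 0.186), Llgl2 (-0.33, 0.189) and Ap1m2 (-0.29, 0.245). Among the 12 epithelial genes with an E-box, 7 were higher and 5 lower with a median of 0.11, and the 6 without one in this window had a median of 0.31.

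Most mesenchymal genes were higher with TGF-β1. Of 24 genes, 16 were detected on all 6 arrays, of which 14 were higher and 2 lower, with a median log2 difference of 0.82, against -0.031 over all genes. Of these 16, 3 rose as DEGs (Lox, Sparc and Fn1, which encode proteins of the extracellular matrix or its cross-linking), while 1.19% of all genes did. The type I collagen genes Col1a1 and Col1a2 were tested too and passed the DEG rule, but reached the detection rule through the TGF-β1 arrays alone, so that their being higher was fixed by it. With both the list had 18 genes and 5 DEGs, and its median was 1.35, or 1.12 with the collagens at the bounds given next, 0.63 with normexp background and 0.59 with no filter on dim probes. Lox, a collagen cross-linking oxidase, read 8.85, 8.61 and 9.64 on the control arrays and 12.59, 12.29 and 11.61 on the TGF-β1 arrays, a log2 difference of 3.13 (SE 0.34, adjusted p = 0.0110, limma). Fn1 (fibronectin) read 13.88, 14.24 and 14.83 against 16.84, 16.89 and 15.90, a difference of 2.22 (SE 0.34, adjusted p = 0.0279). Sparc, a collagen-binding glycoprotein, rose by 2.35 (SE 0.37, adjusted p = 0.0323). In each of these 3 genes the groups were well apart. Col1a1 and Col1a2 stood at background on all 3 control arrays, and their change is given as a bound. Col1a1 was at least 2.59-fold higher and Col1a2 at least 2.38-fold higher, each bound being the TGF-β1 mean over the signal at which probes became well above background. With normexp background the differences of the 2 collagens shrank to 0.60 and 0.43.

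Calls of the mesenchymal list were lost with single arrays left out, at changes of similar size. Fn1 and Sparc lost an adjusted p under 0.05 when replicate 1 or 2 of either group was left out, Lox without control replicate 1 or TGF-β1 replicate 2, Col1a1 without TGF-β1 replicate 2, and Col1a2 without control replicate 1 or 2 or TGF-β1 replicate 2. In those fits Fn1 was 2.00 to 2.18, Sparc 2.10 to 2.27 and Lox 3.04 to 3.07 on the log2 scale. Tnc (tenascin C, 2.42, adjusted p = 0.118), Tagln (a smooth muscle actin-binding protein, 2.00, adjusted p = 0.0735) and Vim (vimentin, 1.72, adjusted p = 0.147) were higher without passing the test. Without TGF-β1 replicate 3 all 3 were DEGs, with Tnc at 3.20 (adjusted p = 0.00534), Tagln at 2.53 (adjusted p = 0.00204) and Vim at 2.31 (adjusted p = 0.0131). The 2 lower genes were S100a4, a calcium-binding protein, at -0.75 (adjusted p = 0.107) and Cdh2, or N-cadherin, at -0.30 (adjusted p = 0.493). Col3a1, Col5a1, Mmp2, Postn and Pdgfrb were not well above background on any array.

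Fibroblast markers were higher on the same arrays as the mesenchymal list, and 4 genes (Col1a1, Col1a2, Col3a1 and Pdgfrb) belong to both lists. Of 12 markers, Thy1, Dcn and Pdgfra were detected on all 6 arrays, Col1a1 and Col1a2 on the TGF-β1 arrays only, and Col3a1, Lum, Pdgfrb, Tcf21, Dpt, Mfap5 and Pi16 on none. The mean log2 signal of the 3 detected throughout was 6.55 to 6.59 on the control arrays and 8.76, 7.92 and 6.74 on TGF-β1 replicates 1, 2 and 3. Thy1 read 4.14, 4.67 and 4.23 on the control arrays and 8.19, 7.65 and 4.60 on the TGF-β1 arrays (adjusted p = 0.177, limma), with replicate 3 inside the control range. Without that array the Thy1 difference was 3.58 (adjusted p = 0.00212). With all arrays Dcn differed by 1.00 (adjusted p = 0.273, limma) and Pdgfra by 0.21 (adjusted p = 0.484), and the groups of Pdgfra overlapped. The part of fibroblasts in the result was not tested, and in bulk RNA more cells of a type and more RNA per cell cannot be told apart. Of 7 endothelial markers, Pecam1 was detected on all 6 arrays and 5 on none. Of 7 leukocyte markers, Cd68, Csf1r and Cd3e were detected on all 6 arrays and the other 4, including Ptprc, on none. Cd68, a lysosomal protein abundant in macrophages, read 10.89, 11.35 and 10.39 on the control arrays and 11.59, 12.19 and 11.57 on the TGF-β1 arrays, with no overlap (0.90, adjusted p = 0.147), while Csf1r differed by 0.01 and Cd3e by -0.24.

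**Figure D5:**
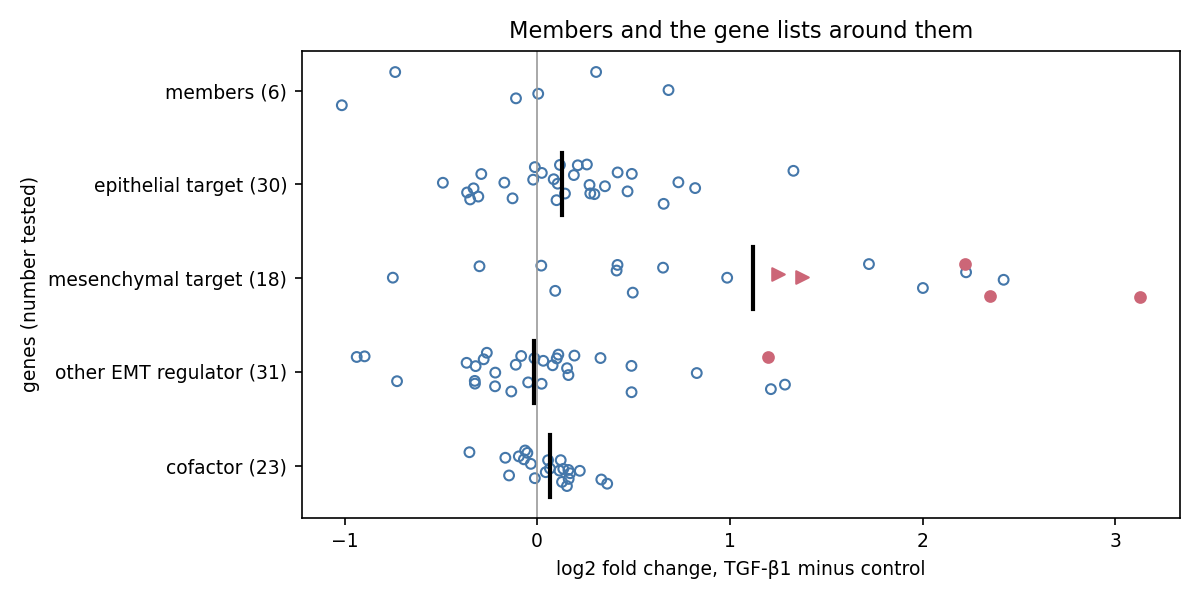
Log2 fold change, TGF-β1 minus control, of each gene tested among the members and 4 gene lists; filled circles are DEGs, triangles are the lower bounds of Col1a1 and Col1a2, and the vertical bars are list medians with those genes at their bound. The 3 filled circles of the mesenchymal list lie between 2.22 and 3.13, 1 filled circle, Sox9, lies in the other regulators, and none lies among the members, epithelial genes or cofactors.

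Other EMT regulators, among them relatives of the members, split evenly in the main comparison. Of 37 genes, 31 were tested, 15 were higher and 16 lower, and the median log2 difference was -0.014. Scaling by the 75th percentile gave 12 higher and 19 lower with a median of -0.060. The 1 DEG was Sox9, a factor of airway progenitors and cartilage that partners with Snai2 in other epithelia. It read 7.10, 7.75 and 7.77 on the control arrays and 8.75, 8.94 and 8.53 on the TGF-β1 arrays, and rose by 1.20 on the log2 scale (SE 0.21, adjusted p = 0.0468, limma). The groups of Sox9 were well apart, but the adjusted p was over 0.05 when any 1 array other than TGF-β1 replicate 3 was left out, at 0.0627 to 0.178. Sox11, a neural and mesenchymal SOX factor, differed by 1.29 (adjusted p = 0.176). Klf8 was near background, detected on 1 control and 2 TGF-β1 arrays, and its difference of 1.21 (adjusted p = 0.338) was 0.14 with normexp background and 0.46 without control replicate 3. Elf3, an ETS factor of differentiated epithelium, differed by -0.94 (adjusted p = 0.152), and Id4, an inhibitor of helix-loop-helix factors, by -0.90 (adjusted p = 0.152). Both passed the DEG rule without TGF-β1 replicate 3, Elf3 at -1.18 (adjusted p = 0.0400) and Id4 at -1.11 (adjusted p = 0.0451). The direct relatives were taken after their values were seen. Prrx2 read 9.78, 10.06 and 9.90 on the control arrays and 10.98, 11.07 and 10.17 on the TGF-β1 arrays (0.83, adjusted p = 0.139), the opposite sign to Prrx1, and passed the DEG rule without TGF-β1 replicate 3 (1.11, adjusted p = 0.00764). Grhl3 differed by 0.49 (adjusted p = 0.176) and Grhl1 by -0.37 (adjusted p = 0.119). Snai3, Ovol3, Foxc2, Gsc, Elf5 and Tbx3 were not well above background on any array.

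Proteins that the EMT factors recruit, or that set their stability, differed little. Of 24, 23 were on the array and tested, 14 were higher and 9 lower, and 0 were DEGs, with 2 at an unadjusted p under 0.05 (limma), beside 22.2% of all genes. The median log2 difference was 0.066, and with scaling by the 75th percentile it was -0.070, with 7 higher and 16 lower. The largest differences were those of Fbxw7, a ubiquitin ligase subunit (0.36, adjusted p = 0.186, or 0.47 and 0.0434 without TGF-β1 replicate 3), Hdac2, a histone deacetylase recruited by Snai1 (-0.35, adjusted p = 0.313), Kdm1a, a histone demethylase bound by the SNAG domain of Snail proteins (0.33, adjusted p = 0.136) and Ctbp2, a corepressor bound by Zeb proteins (0.22, adjusted p = 0.253).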

How the data were processed

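Gene expression was measured in 3 control and 3 TGF-β1 cultures with single-colour (Cy3) Agilent mouse 8×60K arrays, read with Agilent Feature Extraction 11.0.1.1 per the labels. The authors deposited spot intensity on a linear scale, background-subtracted and not normalised between arrays, with the median brightness of spot and local background and with 0 or 1 flags for detection (well above background), saturation and spot quality. Control spots and spots marked as uneven or outliers were left out, which kept 56599 of 56605 probes. Of 35883 probes with a RefSeq accession, 32991 were named through the GRCm38.p6 table, and the others were not used. No probe positions are given, as the array was designed on another build.

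Log2 signals were normalised by quantiles. Spots of a probe were averaged, and the brightest probe on average among those passing the filter stood for a gene. The filter asked for a probe well above background on at least 3 arrays. Groups were compared with limma 3.58.1 in R 4.3.3 and Benjamini-Hochberg adjustment over 14345 genes, without further terms. The methods name quantile normalisation and an unpaired t-test, and the latter was an alternative. Normexp used median brightness with an offset of 50. The number of arrays limits the precision. The scripts were tested on simulated data.

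The members and lists were chosen with earlier results of these data known, and gene lists come from general knowledge. Named genes were the members, list genes with an adjusted p under 0.05 (up to 8 a list) with up to 4 more by size of change, and the 3 genes most like each of 3 members. Others are marked as chosen later. 1 further gene selected by size of change is not reported here. Alternatives were the scaling, background, filter, probe choice, variance model, array weights, the t-test, the replicate number as a block, slide row and leaving out each array.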

Additional observations from a re-analysis of the deposited data

How the results depend on the processing

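No member was a DEG in the main comparison, and with array weights 1 was (Prrx1), beside 807 of the 14345 genes tested. Members with an adjusted p under 0.05, 0 in the main comparison, were 3 with array weights, 2 within slide row 1 alone and 0 to 2 with 1 array left out, the 2 coming without TGF-β1 replicate 3. By the t-test 2 members (Ovol1 and Ovol2) had an unadjusted p under 0.05 and 0 an adjusted one. The groups did not overlap for 4 members with scaling to the 75th percentile, no filter or the mean of probes, as in the main comparison, and for 3 with normexp background or detection on all 6 arrays. Shares of all genes under 0.05 at any size, or without overlap, were not computed for the alternatives. These counts are therefore not a result about the members. Grhl2 turned to -0.13 with scaling to the 75th percentile and to -0.17 with the mean of its probes, and the Grhl2 log2 fold change ran from -0.032 to 0.061 with 1 array left out (without control or TGF-β1 replicate 1, 2 or 3). Under detection on all 6 arrays Zeb1 and Prrx1 were not tested.

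DEGs of the epithelial list, 0 in the main comparison, were 1 with normexp background, 1 with trend and robust variance, 2 with array weights, 1 by the unadjusted t-test, 3 within slide row 1 alone and 0 to 2 with 1 array left out. DEGs of the mesenchymal list were 5 in the main comparison, among them Col1a1 and Col1a2, whose direction the detection rule fixed. In the alternatives the DEGs of that list were 0 with no filter, 3 with detection on all 6 arrays, 10 with array weights, 0 and 8 by the t-test with and without adjustment, 8 with slide row as a term, 10 within row 1 alone and 0 to 9 with 1 array left out. Of the other regulators, 1 was a DEG in the main comparison, 0 with normexp, no filter, the adjusted t-test or slide row as a term, 5 with array weights, 3 within row 1 alone and 0 to 4 with 1 array left out. Over all genes the 198 DEGs became 60 with no filter, 807 with array weights, 5 and 388 by the t-test with and without adjustment, 861 within row 1 alone and 56 to 709 with 1 array left out, lowest without TGF-β1 replicate 2 and highest without TGF-β1 replicate 3. The cause of these shifts was not tested.

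Pairing of the samples by replicate number was not shown. Deviations of same-numbered arrays correlated at r = -0.01, 0.33 and -0.05, and not every array correlated best with its own number. The r of 0.33 was the largest of any control and TGF-β1 pair. With so few arrays in a group these correlations depend on each other, so they cannot exclude pairing. With the replicate block 104 genes were DEGs, 2 of the mesenchymal list and 0 of the other regulators, and no member was. The 2 were Col1a1 and Col1a2, whose direction the detection rule fixed, and Lox, Sparc and Fn1 were no longer DEGs. Signal over background limits Zeb1, Zeb2 and Prrx1, and Snai1, Twist1 and Twist2 have only an upper bound.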
